A study of Mus musculus with 6 samples.

Results

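The genes described here are 38 mouse genes for protein folding in the endoplasmic reticulum (ER) and for the unfolded protein response. They were taken by symbol as a named list, each represented by its brightest probe unless another is named, out of 23462 mouse genes with a symbol that had a probe on the array. They fall into 7 sensors and transcription factors, 16 chaperones and folding enzymes, 9 genes of ER-associated degradation and 6 genes of translocation into the ER. The study exposed TM4 cells, a male mouse testicular somatic cell line widely used as a Sertoli cell model, to 10 µM 4-nitrophenol (PNP), a degradation product of organophosphate insecticides. The treated group was 3 samples of TM4 cells given 10 µM PNP for 24 h, and it was compared with 3 samples of TM4 cells without PNP (0 µM, 24 h). All 6 samples come from the same line, so no second line or animal stands behind either group. Total RNA of each sample was labelled with Cy3 and hybridised to a 1-colour Agilent array. The labels do not say whether replicates were separate cultures, so every p-value measures the spread between these samples only, which may be technical.

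Secreted and membrane proteins enter the ER through the SEC61 channel, fold with the help of chaperones and disulphide isomerases, and are returned to the cytosol for destruction when folding fails. When unfolded proteins build up, the membrane sensors IRE1 (gene Ern1), PERK (gene Eif2ak3) and ATF6 are released from the chaperone BiP (gene Hspa5). IRE1 then splices Xbp1 mRNA, PERK slows translation and favours the transcription factor ATF4, and cleaved ATF6 enters the nucleus, after which chaperone and degradation genes are transcribed more strongly. Sertoli cells secrete proteins that feed and shelter germ cells, so the ER carries much of their work. An array of total transcript signal measures none of the splicing, phosphorylation or cleavage steps themselves.

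The promoter element through which ATF6 and NF-Y act, the ER stress response element (ERSE), is shown first. It consists of CCAAT, 9 bases of any kind and CCACG, and was searched on both strands in a window that runs 250 bases before to 50 bases after each gene's start, from RefSeq sequence of GRCm38.p6. A window was listed for 32 of the 38 members. The element lay in 9 of these 32 windows (28.1%), against 37 of 27025 windows of all genes (0.137%). ERSE was first defined in promoters of ER chaperones, several of them members, so this share is no independent property of the list. A window without a match does not make a gene a non-target: that of Dnajb9, a classical XBP1 target, held none. Each line below gives the gene, the coordinates of the printed bases, the strand of the gene and the positions of the element relative to the start. Capitals mark the fixed letters of the element, and CGTGG followed by ATTGG is the element on the opposite strand.
Hspa5, chr2:34772020-34772048, + strand, -65 to -47: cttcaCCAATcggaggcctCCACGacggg
Hsp90b1, chr10:86705528-86705556, - strand, -107 to -89: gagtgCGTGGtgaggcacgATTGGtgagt
Hsp90b1, chr10:86705633-86705661, - strand, -212 to -194: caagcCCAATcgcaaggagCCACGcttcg
Calr, chr8:84847070-84847098, - strand, -162 to -144: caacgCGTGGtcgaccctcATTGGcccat
Canx, chr11:50325795-50325823, - strand, -145 to -127: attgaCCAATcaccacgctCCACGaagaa
Creld2, chr15:88819515-88819543, + strand, -126 to -108: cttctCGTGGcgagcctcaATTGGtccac
Syvn1, chr19:6046527-6046555, + strand, -44 to -26: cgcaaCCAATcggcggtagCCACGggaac

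Pdia6, Dnajc3 and Derl3 also held the element. A shorter relative, ERSE-II (ATTGG, 1 base of any kind and CCACG, both strands), lay in 2 of the 32 windows (6.25%), those of Herpud1 and Dnajb11, against 12 windows of all genes (0.0444%). The Dnajb11 match lay after the gene's start, and that of Herpud1 is printed with its fixed letters in capitals.
Herpud1, chr8:94386372-94386392, + strand, -52 to -42: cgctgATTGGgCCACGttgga
The XBP1-bound element TGACGTGG, whose CGTGG could overlap an ERSE, was in 0 of the 32 windows and in 193 windows of all genes (0.714%). A match of letters is a description of the window and not a measured binding site.

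Signal was read as log2 of the processed intensity minus the array's own 75th percentile, so 0 is the level of the 75th percentile probe, and levels are compared only within a probe. Of 61 member probes, 58 passed the filter, and 37 of the 38 members had such a probe. The filter asks that every array of PNP or every array of untreated cells read the probe well above background. It also asks for a value on every array, which 1 probe of Hspa5 lacked on PNP 1, where its spots were flagged as outliers. Derl3, a derlin of the degradation channel, was at background level on all 6 arrays and has no fold here. The share of probes well above background was 51.6% to 57.9% on PNP arrays and 47.8% to 54.9% on untreated arrays, and 0 spots were saturated. Of 14 Sertoli cell markers, 11 were well above background on all 6 arrays, among them Wt1, Sox9 and Gata4, while Amh, Cldn11 and Fshr were so on none. Of the markers with a probe, 0 of 6 Leydig, 0 of 5 endothelial, 2 of 8 germ cell, 3 of 6 macrophage and all 5 peritubular myoid markers were above background on all 6 arrays. In bulk RNA, fewer cells of a type and less RNA per cell cannot be told apart.

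The 6 arrays lay on 3 slides with 2 arrays each, at positions called 1 and 2 here. Slide and position were read from the names of the scanner output. PNP 1 was at position 2 of slide 2, and PNP 2 and PNP 3 were at positions 1 and 2 of slide 3. Untreated 1 and untreated 2 were at positions 1 and 2 of slide 1, and untreated 3 was at position 1 of slide 2. PNP therefore had 2 of its 3 arrays at position 2 and the untreated group 1 of 3. Each slide was scanned once, so slide and scan are the same division.

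No member passed the test for a difference between PNP and untreated cells. With limma and Benjamini-Hochberg adjustment over all 21480 units tested (genes and unnamed transcripts), 0 of 37 members and 0% of all units stood under an adjusted p of 0.05, with Sec61a1 the lowest member at 0.487. At an unadjusted p under 0.05 there was 1 member, Sec61a1, higher with PNP, and 0 lower, against 9.94% of all units (6.86% higher and 3.08% lower). The 3 PNP arrays stood apart from the 3 untreated arrays for 4 members, against 15.4% of all units. These were Pdia3, Erp44 and Sec61a1 on the higher side, against 7.6% of all units, and Ssr1 on the lower side, against 7.83%. A share of members near or below the background says nothing particular of the list.

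The differences of the members lay close to 0. Of 37 members, 18 were positive and 19 negative (48.6% positive, against 44.8% of all units and 37.8% of the named genes among them). Their median log2 fold change was -0.0020, against -0.04 over all units and -0.09 over named genes. The members ran between -0.67 for Pdia6 and 0.52 for Sec61a1, and 26 of them (70.3%) lay within 0.25 of 0, against 53.1% of all units and 57.2% of named genes. Of 92 genes in 6 neighbouring lists described below, 71.7% lay within 0.25 of 0, so this share was not particular to the members. The 95% interval included 0 for 36 of 37 members and lay within 1 of 0, a 2-fold change either way, for 32. It reached a median of 0.53 to either side of the estimate, from 0.43 to 2.05. For a typical member, an estimate smaller than this could not be told from 0 with 3 arrays a group. The intervals are not adjusted for the number of units tested, so larger changes could also miss the adjusted threshold. Sec61a1, whose interval left out 0, had a limma adjusted p of 0.487.

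**Figure D1:**
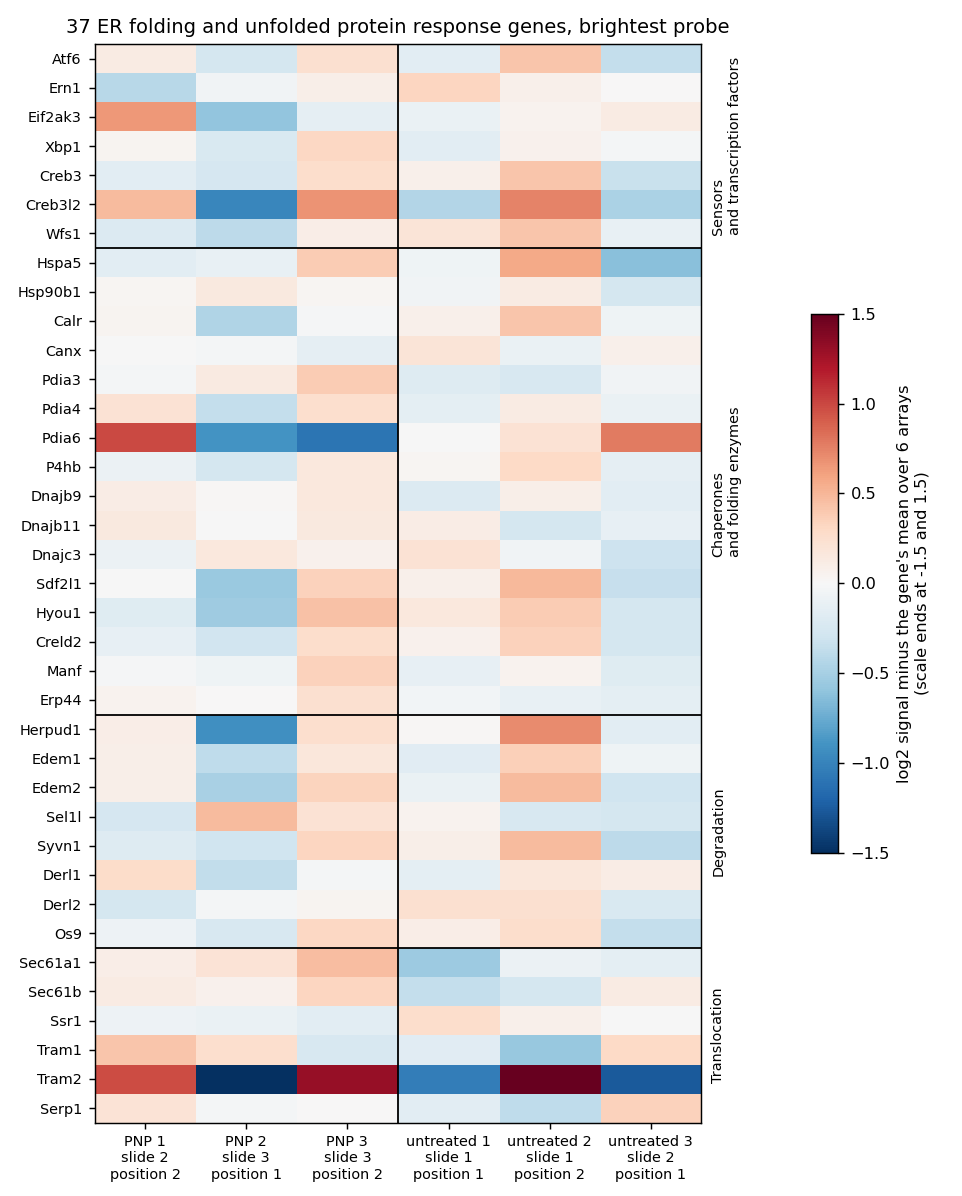
Log2 signal of each tested member's brightest probe minus its own mean over the 6 arrays (colour, ending at -1.5 and 1.5), with members in rows by role and the PNP arrays in columns left of the untreated arrays, each with its slide and position. Tram2, Creb3l2 and Herpud1 change colour between arrays of the same group, and Pdia6 is high on PNP 1 and untreated 3, the arrays of slide 2.

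**Figure D2:**
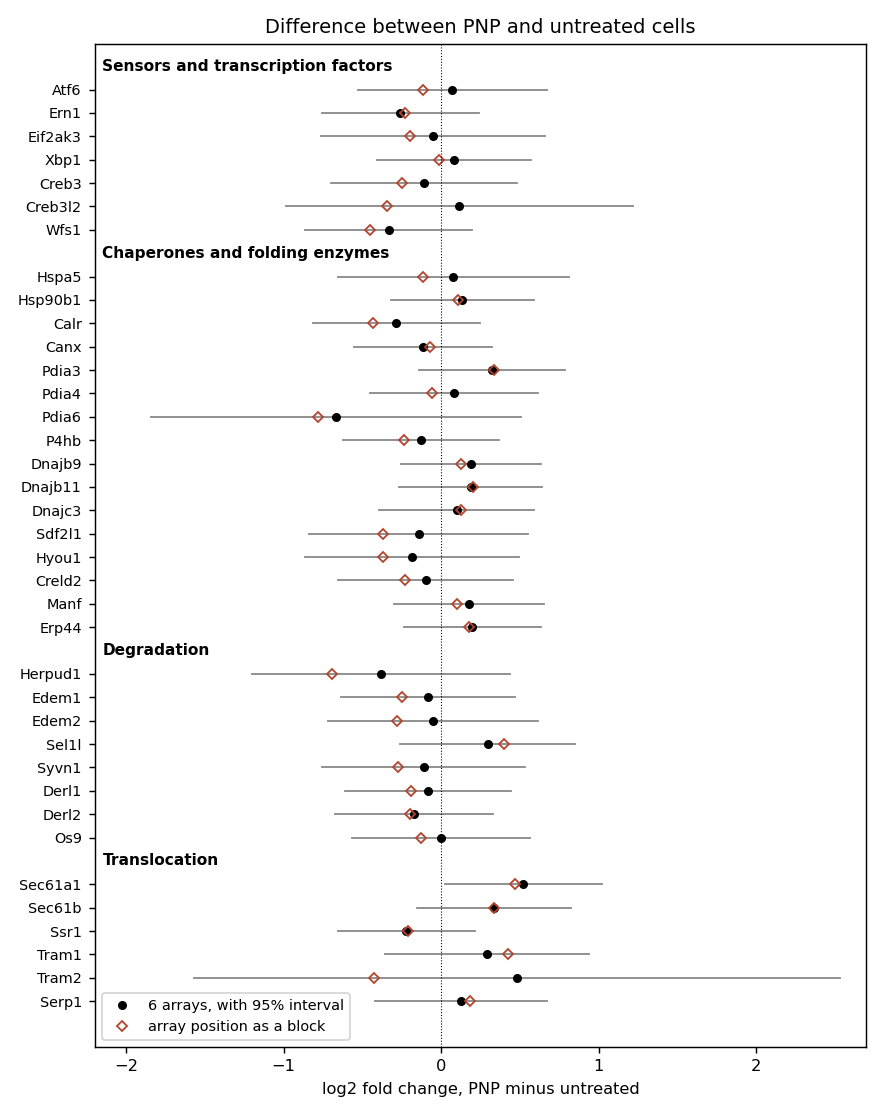
Log2 fold change of PNP over untreated cells for each tested member, by role. Black points with lines are the estimates from all 6 arrays with their 95% intervals (limma), and open diamonds are the estimates with array position as a block; all intervals but that of Sec61a1 include 0, and most diamonds lie left of their points.

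Among the sensors and transcription factors, 3 of 7 were positive and 4 negative, with a median log2 fold change of -0.05, and 0 of 7 passed. With position as a block 0 of 7 were positive and their median was -0.23, and with PNP 2 left out and no block the median was 0.22. Ern1, the kinase and nuclease IRE1, read -1.65, -1.29 and -1.15 on the PNP arrays, against -0.92, -1.16 and -1.23 on the untreated arrays (log2 signal over the 75th percentile). The groups overlapped and the difference was -0.26 ± 0.22 (SE, limma adjusted p 0.708). Eif2ak3, the kinase PERK, read -0.65, -1.90 and -1.44 with PNP, against -1.41, -1.25 and -1.18 without. The 3 PNP arrays of Eif2ak3 enclosed the untreated ones, and its difference was -0.05 ± 0.31 (SE, limma adjusted p 0.971).

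Atf6, the membrane-bound transcription factor of the remaining branch, read 2.32, 1.93 and 2.43 on the PNP arrays, against 2.03, 2.61 and 1.83 on the untreated arrays. In both groups the position 2 arrays were the higher ones, the groups overlapped, and the difference was 0.07 ± 0.26 (SE, limma adjusted p 0.943). Xbp1, whose mRNA IRE1 splices, read 3.42, 3.15 and 3.69 with PNP, against 3.22, 3.44 and 3.35 without. Its groups overlapped with a difference of 0.08 ± 0.21 (SE, limma adjusted p 0.918), and its other probes gave -0.19 and -0.10. Creb3l2, a membrane-bound relative of ATF6 in the secretory pathway, read 1.49, 0.05 and 1.69 with PNP, against 0.58, 1.76 and 0.55 without. The position 1 arrays of both groups were the low ones, and the difference between groups was 0.11 ± 0.48 (SE, limma adjusted p 0.953). Creb3, of the same family, gave -0.11 ± 0.26 (SE, limma adjusted p 0.909). Wfs1, the ER membrane protein wolframin, read 2.37, 2.18 and 2.68 with PNP, against 2.77, 2.99 and 2.47 without. The highest PNP array lay above the lowest untreated array, and the difference was -0.33 ± 0.23 (SE, limma adjusted p 0.655).

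Among the chaperones and folding enzymes, 9 of 16 were positive and 7 negative, with a median log2 fold change of 0.08, which was -0.02 when arrays were centred on their median, and 0 of 16 passed. Hspa5, the chaperone BiP that holds the sensors inactive, read 5.62, 5.65 and 6.15 on the PNP arrays, against 5.70, 6.34 and 5.14 on the untreated arrays. The untreated arrays enclosed the PNP ones, and the difference was 0.08 ± 0.32 (SE, limma adjusted p 0.951, 95% interval -0.65 to 0.81). Another Hspa5 probe past the filter gave -0.10, and the Hspa5 probe without a value on PNP 1 gave -0.34. Hsp90b1, the ER form of HSP90 known as GRP94, read 5.43, 5.53 and 5.42 with PNP, against 5.33, 5.51 and 5.12 without. Its groups overlapped, with a difference of 0.14 ± 0.20 (SE, limma adjusted p 0.839). Hyou1, a nucleotide exchange factor for BiP, read 3.00, 2.64 and 3.62 with PNP, against 3.33, 3.56 and 2.91 without. Its lowest array was PNP 2, the groups overlapped, and the difference was -0.18 ± 0.30 (SE, limma adjusted p 0.856).

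The co-chaperones and soluble helpers of BiP gave small differences of either sign. Dnajb9, a co-chaperone that is a classical XBP1 target, read 0.38, 0.28 and 0.42 with PNP, against 0.06, 0.35 and 0.10 without. Untreated 2 lay within the PNP range, and the difference was 0.19 ± 0.19 (SE, limma adjusted p 0.759), with 0.26 from its other probe. Dnajb11 and Dnajc3, further J-domain co-chaperones, gave 0.19 ± 0.20 and 0.10 ± 0.22 (SE). Sdf2l1, which works with the J-domain proteins, read 2.31, 1.76 and 2.67 with PNP, against 2.39, 2.80 and 1.97 without, and the groups overlapped (difference -0.14 ± 0.30, SE, limma adjusted p 0.894). Manf, a secreted protein released under ER stress, read 4.76, 4.71 and 5.12 with PNP, against 4.64, 4.82 and 4.58 without. Untreated 2 lay within the PNP range, and the difference was 0.18 ± 0.21 (SE, limma adjusted p 0.793). Creld2, an ER-resident protein that rises in ER stress, read 5.41, 5.26 and 5.80 with PNP, against 5.60, 5.88 and 5.28 without. The groups overlapped almost wholly, with a difference of -0.10 ± 0.24 (SE, limma adjusted p 0.913).

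The lectin chaperones and disulphide isomerases held the 2 chaperone genes whose groups stood apart. Pdia3, the isomerase ERp57 that works with the lectin chaperones, read 5.11, 5.27 and 5.53 on the PNP arrays, against 4.94, 4.90 and 5.10 on the untreated arrays. The groups did not overlap, but PNP 1 and untreated 3, which share a slide, were only 0.02 apart, and the difference of means was 0.32 ± 0.20 (SE, limma adjusted p 0.622). A second Pdia3 probe read 4.47, 4.64 and 4.94 with PNP, against 4.30, 4.43 and 4.24 without, and its groups stood apart too, with a difference of 0.36. Erp44, which retains ER proteins through their thiols, read 3.48, 3.43 and 3.68 with PNP, against 3.39, 3.32 and 3.28 without. Every PNP array lay above every untreated array, by a difference of means of 0.20 ± 0.19 (SE, limma adjusted p 0.742).

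Calr, the soluble lectin chaperone calreticulin, read 3.94, 3.44 and 3.88 with PNP, against 3.97, 4.31 and 3.83 without. Its groups overlapped, and the difference was -0.28 ± 0.23 (SE, limma adjusted p 0.700). Its membrane-bound partner Canx gave -0.11 ± 0.19 (SE). Pdia6, a disulphide isomerase that also attenuates IRE1, read 3.81, 1.92 and 1.71 with PNP, against 2.81, 3.03 and 3.59 without. PNP 1 was the highest array of all and PNP 2 and PNP 3 the lowest, so the largest negative member value, -0.67 ± 0.52 (SE, limma adjusted p 0.686), rested on 2 arrays of 1 slide. The isomerases Pdia4 and P4hb gave 0.08 ± 0.23 and -0.13 ± 0.22 (SE).

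Among the genes of ER-associated degradation, 1 of the 8 tested was positive and 7 negative, with a median log2 fold change of -0.08, which was 0.01 in the authors' own values, and 0 of 8 passed. Herpud1, a membrane scaffold of the degradation complex and the member with an ERSE-II before its start, read 3.64, 2.63 and 3.80 on the PNP arrays, against 3.57, 4.26 and 3.39 on the untreated arrays. PNP 2 was low and untreated 2 high, the rest overlapped, and the difference was -0.38 ± 0.36 (SE, limma adjusted p 0.740). Its other probe read 1.08, 0.75 and 1.84 with PNP, against 0.68, 1.16 and 1.08 without, with a difference of the other sign, 0.25. Sel1l, the adaptor of the ubiquitin ligase HRD1, read 3.46, 4.19 and 3.93 with PNP, against 3.77, 3.48 and 3.45 without. It was the positive gene of the group, at 0.30 ± 0.24 (SE, limma adjusted p 0.702), and PNP 1 lay within the untreated range. Syvn1, which encodes HRD1 itself, read 3.29, 3.18 and 3.81 with PNP, against 3.57, 3.95 and 3.09 without. The untreated arrays enclosed the PNP ones, and the difference was -0.11 ± 0.28 (SE, limma adjusted p 0.916).

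The other degradation genes lay between -0.17 ± 0.22 (SE) for Derl2, a derlin, and -0.0020 ± 0.25 (SE) for Os9, a lectin that hands glycoproteins to the ligase. A second Derl2 probe gave -0.18, with every PNP array below every untreated array, while the groups of its brightest probe overlapped. Edem1 and Edem2, which mark misfolded glycoproteins for removal by trimming their mannose, gave -0.08 ± 0.24 and -0.05 ± 0.29 (SE), and Derl1 gave -0.08 ± 0.23 (SE).

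Among the translocation genes, 5 of 6 were positive, with a median log2 fold change of 0.31, and 0 of 6 passed. That median was 0.031 within array position 1, 0.062 within slide 2, and 0.13 without PNP 1. Sec61a1, the pore subunit of the translocation channel, read 4.90, 5.00 and 5.26 on the PNP arrays, against 4.25, 4.70 and 4.64 on the untreated arrays. All PNP arrays lay above all untreated arrays, and the difference was 0.52 ± 0.22 (SE, unadjusted p 0.0424, limma adjusted p 0.487). A second Sec61a1 probe read 3.52, 3.59 and 4.06 with PNP, against 4.01, 4.15 and 3.68 without, and overlapped with a difference of the other sign, -0.22. The last probe of the gene gave -0.08. Sec61b, a small subunit of the channel, read 4.22, 4.15 and 4.41 with PNP, against 3.73, 3.82 and 4.21 without. Untreated 3 lay within the PNP range, the difference was 0.34 ± 0.21 (SE, limma adjusted p 0.625), and its other probe gave -0.34.

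Ssr1, a subunit of the translocon-associated protein complex, read 4.03, 4.00 and 3.94 on the PNP arrays, against 4.37, 4.18 and 4.09 on the untreated arrays. By brightest probes it was the member that stood apart on the lower side, at -0.22 ± 0.19 (SE, limma adjusted p 0.715), while its other probe gave 0.03. Serp1, which stabilises membrane proteins at the translocon under stress, read 3.93, 3.70 and 3.73 with PNP, against 3.56, 3.35 and 4.07 without. Untreated 3 was the highest array, and the difference was 0.13 ± 0.24 (SE, limma adjusted p 0.878). Tram1, a membrane protein beside the channel, gave 0.29 ± 0.28 (SE). Its relative Tram2 read 2.06, -0.48 and 2.40 with PNP, against 0.05, 2.66 and -0.18 without. These readings formed 2 levels in each group, high at position 2 and low at position 1, and the difference between groups was 0.48 ± 0.90 (SE, limma adjusted p 0.876).

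The genes with an ERSE had differences of either sign. Of the 8 tested, 3 were positive and the log2 fold changes ran between -0.67 for Pdia6 and 0.14 for Hsp90b1, with a median of -0.10. The 23 tested members whose listed window lacked the element had a median of -0.0020, with 11 positive. With array position as a block the medians were -0.17 for the genes with the element and -0.20 for those without. No test of this difference was made.

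**Figure D3:**
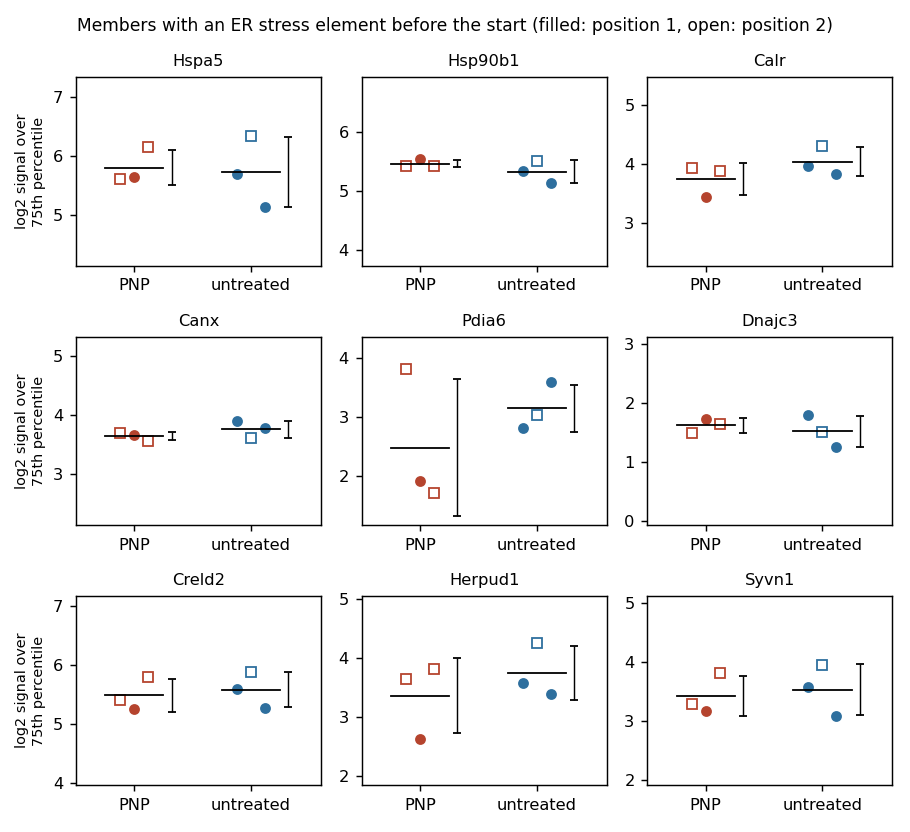
Log2 signal over the 75th percentile on each PNP array and each untreated array, for the 9 tested members with an ERSE or with an ERSE-II before the start. Horizontal lines are group means, side bars are 1 SD either way around the mean (n = 3), and filled and open symbols are positions 1 and 2; the groups overlap for every gene drawn, and Pdia6 has the widest spread with PNP.

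Several members were measured by more than 1 probe, and the probes often disagreed. Of 18 members with at least 2 probes past the filter, 7 had probes of opposite sign, namely Xbp1, Hspa5, Dnajb11, Herpud1, Sec61a1, Sec61b and Ssr1. The probes of 7 members spanned over 0.25 in log2 fold change, with the widest spans at Sec61a1 (0.74), Sec61b (0.68) and Herpud1 (0.63). Both Pdia3 probes, at 0.32 and 0.36, and both Dnajb9 probes, at 0.19 and 0.26, lay on the same side. Taking the median of a gene's probes in place of the brightest, the translocation median was 0.06 and 0 members were under an unadjusted p of 0.05, so the call of Sec61a1 at that level rested on 1 of its 3 probes.

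**Figure D4:**
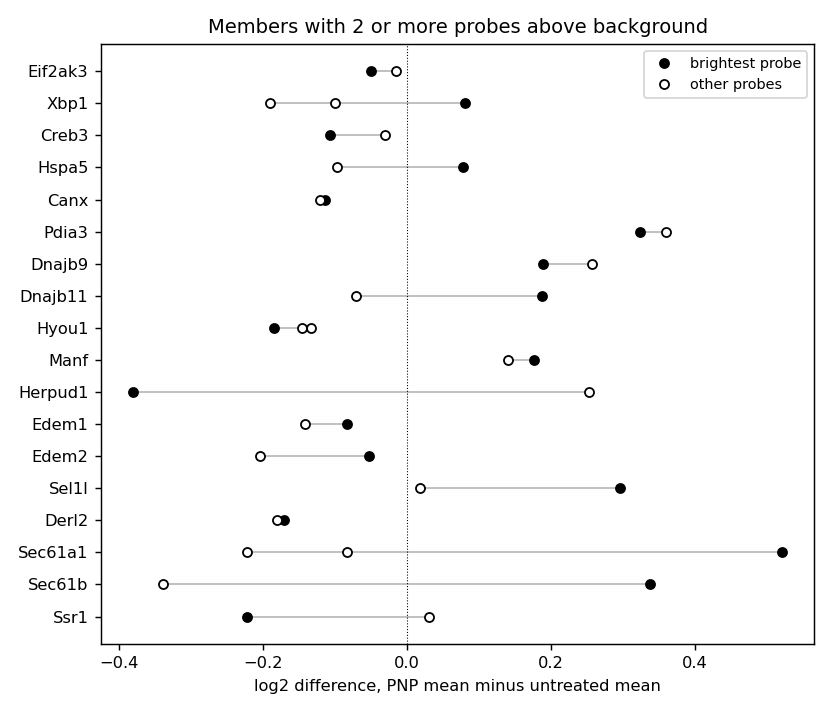
Log2 fold change of PNP over untreated cells for every probe past the filter of the 18 members with at least 2 such probes, with the brightest probe of each gene filled. The probes of Sec61a1, Sec61b and Herpud1 lie on opposite sides of 0.

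Array position went with the level of several members. In a limma fit with treatment and array position together, position 2 was higher than position 1 with an adjusted p under 0.05 for 3 of 37 members, against 2.64% of all units. These were Tram2 (2.72 ± 0.19, SE, adjusted p 0.0159), Creb3l2 (1.37 ± 0.19, SE, adjusted p 0.021) and Herpud1 (0.94 ± 0.19, SE, adjusted p 0.0499). Without PNP 2, or without any 1 of the 3 untreated arrays, 0 members passed, without PNP 3 Tram2 alone did, and without PNP 1 all 3 did. At an unadjusted p under 0.05 there were 8 members, all higher at position 2, against 20.5% of all units (11.1% higher and 9.42% lower). The further 5 were Atf6, Edem1, Edem2, Sdf2l1 and Calr. In sign, 28 of 37 members were higher at position 2, against 56.3% of all units, with a median of 0.34, against 0.06. The trait was not particular to the members. Of 92 genes in 6 neighbouring lists described below, 67 were higher at position 2, with a median of 0.19. At an unadjusted p under 0.05, 15 of these 92 were higher and 0 lower. By limma 2 of them passed, Ddit3 (1.07, adjusted p 0.0406) and the folding gene Sil1 (1.06, adjusted p 0.0431). The position difference was larger than the treatment difference of the same fit for 22 of 37 members (59.5%), against 51.9% of all units and 54.9% of named genes.

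The position difference could be read within slides that held 1 group only. On slide 3, with both arrays from PNP cells, 30 of 37 members were higher at position 2 (81.1%, against 55.9% of all units), with a median difference of 0.41, against 0.07. On slide 1, with both arrays untreated, 27 were higher (73%, against 52.3% of all units), with a median of 0.22, against 0.02. On both of these slides 25 members were higher at position 2 (67.6%, against 39.5% of all units), 5 were lower and 7 differed in sign. Tram2 differed between positions by 2.88 within the PNP slide and by 2.61 within the untreated slide. Creb3l2 differed by 1.64 within the PNP slide and by 1.18 within the untreated slide, and Herpud1 by 1.18 and by 0.69. Tram1 was the clearest member of the other sign, with -0.49 within the PNP slide and -0.40 within the untreated slide. What else differed between the samples at positions 1 and 2 was not tested.

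**Figure D5:**
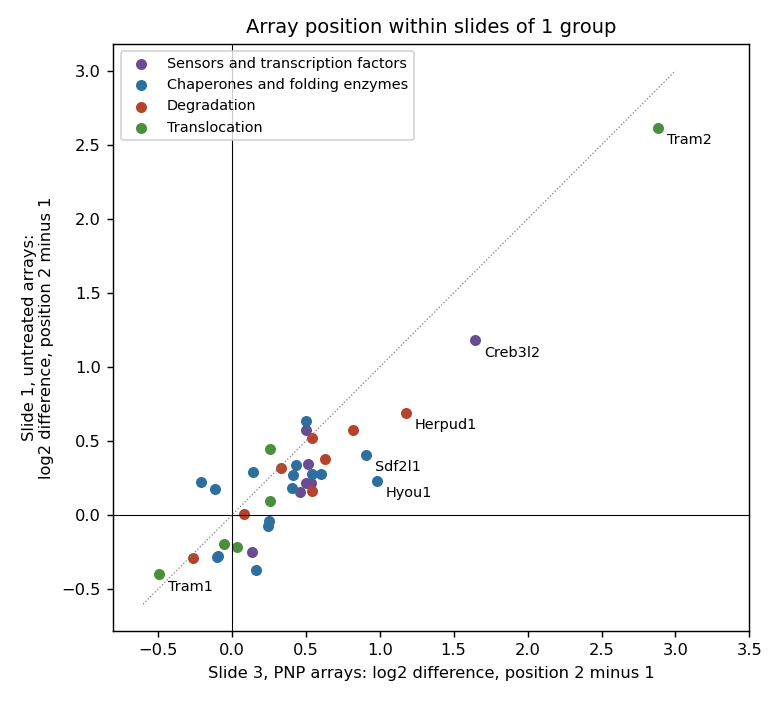
For each tested member, the log2 difference between array positions 2 and 1 within slide 3, with both arrays from PNP cells (horizontal axis), and within slide 1, with both arrays untreated (vertical axis), coloured by role, with a dotted line where both are equal. Tram2, Creb3l2 and Herpud1 lie farthest to the upper right and Tram1 at the lower left.

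With array position as a block, the differences of the members moved downward. Of 37 members, 12 were positive (against 42.9% of all units), and the median log2 fold change was -0.19, against -0.06 over all units. By limma in this fit, 0 members and 0% of units passed, and 2 members had an unadjusted p under 0.05, against 13.7% of units (8.35% higher and 5.34% lower). Both were lower with PNP. Herpud1 gave -0.69 ± 0.19 (SE, p 0.00697, limma adjusted p 0.222), at -0.85 within position 1 and -0.53 within position 2. These values are from its brightest probe. At position 1 its other probe read 0.75 with PNP, between the untreated 0.68 and 1.08. At position 2 that probe read 1.08 and 1.84 with PNP, on either side of the untreated 1.16. Calr gave -0.43 ± 0.17 (SE, p 0.0404, limma adjusted p 0.352), at -0.46 within position 1 and -0.40 within position 2. Tram2 gave -0.43 ± 0.19 (SE, limma adjusted p 0.382), against 0.48 without the block, and Sec61a1 gave 0.47 ± 0.21 (SE, limma adjusted p 0.381). Wfs1 gave -0.45 ± 0.20 (SE, limma adjusted p 0.367), at -0.44 within position 1 and -0.47 within position 2. On slide 2, the slide that held both groups, PNP 1 read 0.26 above untreated 3 for Herpud1, where PNP 1 was at position 2 and untreated 3 at position 1. With slide as a fixed block the members moved upward instead. In that fit 31 of 37 were positive, with a median of 0.17, against 0.05 over all units, so most units were positive as well. The fit rests on slide 2 alone, where treatment and position cannot be told apart.

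Pdia6 was the member whose level differed most between slides. It averaged 1.81 on slide 3 (PNP), 3.70 on slide 2 (PNP 1 and untreated 3) and 2.92 on slide 1 (untreated), while arrays of the same slide differed by at most 0.22. On slide 2 the PNP array and the untreated array of Pdia6 were thus nearly level. A second Manf probe behaved likewise, with 4.56 on PNP 1 and 4.40 on untreated 3, against 2.94 to 3.56 on the other arrays. Of 37 members, 14 had slide means further apart than any 2 arrays of 1 slide (37.8%), a share below the 41.4% of all units. Slides 1 and 3 each held 1 group, so there slide and treatment cannot be told apart.

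Genes around the members gave no call between PNP and untreated cells either. Of 92 genes in 6 neighbouring lists, 0 passed the limma test, and 6 were higher and 2 lower at an unadjusted p under 0.05, near the 9.94% of all units. Their median log2 fold change was -0.08, and 34 (37%) were positive, against 37.8% of named genes. Among 12 output genes of the stress response, 1 was positive, the median was -0.12, and Sesn2, a leucine sensor induced through ATF4, was lower at -0.58 ± 0.23 (SE, limma adjusted p 0.456). Atf4, the transcription factor downstream of PERK, read 5.82, 5.62 and 5.82 with PNP, against 6.21, 5.88 and 6.06 without, and its groups stood apart at -0.30 ± 0.20 (SE, limma adjusted p 0.638). A second Atf4 probe gave -0.44, and its groups stood apart too. Ddit3, which encodes the pro-apoptotic factor CHOP, read 3.78, 2.54 and 3.73 with PNP, against 2.87, 3.97 and 3.22 without. The position 2 arrays of Ddit3 were the high ones in both groups, and its difference was -0.0036 ± 0.40 (SE). Atf3 and Trib3, further factors of this branch, both gave -0.24, with SEs of 0.22 and 0.24, and the ATF4 targets Chac1 and Ppp1r15a gave -0.15 ± 0.28 and -0.09 ± 0.23 (SE). The positive gene was Nupr1, a stress-induced chromatin protein, at 0.15 ± 0.21 (SE).

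Among 19 further folding enzymes, 10 were positive, with a median of 0.02 and 1 at an unadjusted p under 0.05. This was the prolyl isomerase Fkbp11, at 1.01 ± 0.38 (SE, limma adjusted p 0.446). The groups of Fkbp11 overlapped, and on slide 2 the difference, PNP 1 minus untreated 3, was -0.21. Its relative Fkbp14 gave 0.47 ± 0.24 (SE), while Pdia5 and the glucosidase subunit Ganab gave -0.33 ± 0.28 and -0.23 ± 0.20 (SE). Second probes had the other sign for Fkbp14 (-0.14) and for Ganab (0.52, with PNP arrays all above untreated arrays). Among 12 genes of glycan addition, 5 were positive, with a median of -0.04. The oligosaccharyltransferase subunits Stt3a, Ostc and Dad1 gave 0.34 ± 0.20, 0.21 ± 0.25 and -0.33 ± 0.23 (SE), with -0.27 from a second Stt3a probe. Dpagt1, which starts the lipid-linked glycan, gave -0.51 ± 0.21 (SE, limma adjusted p 0.482). Among 14 further degradation genes, 2 were positive, with a median of -0.16. The highest was Edem3, a relative of Edem1 and Edem2, at 0.69 ± 0.19 (SE, limma adjusted p 0.301), with 0.29 from its other probe. The lowest were the ubiquitin-conjugating enzyme Ube2g2 and the p97 cofactor Nploc4, at -0.36 ± 0.24 and -0.32 ± 0.23 (SE).

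Among 19 further translocation genes, 8 were positive, with a median of -0.07. Srp54a, of the signal recognition particle, gave 0.60 ± 0.22 (SE, limma adjusted p 0.439) from its brightest probe and 0.85 and -0.06 from others, and the channel partner Sec62 gave 0.26 ± 0.19 (SE). Ssr2, a partner of Ssr1, and the signal peptidase subunit Spcs1 gave -0.41 ± 0.24 and -0.25 ± 0.20 (SE), and a second Ssr2 probe gave 0.13. Among 16 genes of ER export and retrieval, 8 were positive, with a median of -0.08, and 3 were higher at an unadjusted p under 0.05. Sec23a, a coat protein of vesicles that leave the ER, read -0.73, -0.27 and 0.19 with PNP, against -1.73, -1.38 and -1.08 without. Its groups stood apart at 1.13 ± 0.29 (SE, limma adjusted p 0.295), while its other probe gave -0.40. Sec24d, another subunit of that coat, gave 0.74 ± 0.29 (SE, limma adjusted p 0.456), and the retrieval receptor Kdelr1 and the export regulator Preb gave -0.37 ± 0.29 and -0.32 ± 0.25 (SE).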

How the data were processed

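Total RNA of 6 TM4 samples, 3 with PNP and 3 without, was measured on 1-colour arrays. The deposited intensity values are Agilent Feature Extraction processed signals, version 10.7 by the submitters' processing notes and 11.5.1.1 by the file headers, background-subtracted and not normalized between arrays. A log2 table of these arrays deposited by the authors, whose normalization is not given in the sources used here, was used as an alternative.

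Spots flagged as outliers were dropped, log2 processed signal was averaged per probe, and the 75th percentile of the array was taken off. Of 56605 probes, 28208 were kept: those measured on every array and well above background throughout PNP or throughout untreated cells. The brightest probe stood for its gene. Symbols came from a RefSeq table of GRCm38.p6, used for names and for promoter sequence; all 175 listed genes matched, 5 through older symbols. The 21480 units tested (13538 named genes) were fitted under R 4.3.3 with limma 3.58.1 (lmFit, eBayes; two-sided p, adjusted over all units by Benjamini-Hochberg, threshold 0.05), checked on simulated data. Precision is limited by the number of arrays.

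The members and all lists were chosen with earlier results of these data known. Values on every array are given for members with an unadjusted p under 0.05 in either fit, for members whose groups stood apart and for a fixed panel. For each neighbouring list the text gives 2 genes at each end, except for 1 item that is not reported here. Creb3l2, Tram2, Pdia6, Sec61b and second probes are given array by array because of their values. Alternatives were scaling, background, filter, probe choice, blocks, array weights and leaving out each array.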

Additional observations from a re-analysis of the deposited data

How the results depend on the processing

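No member passed under any of the 22 alternatives except Sec61a1 with array weights (log2 fold change 0.76, adjusted p 0.0476), a fit in which untreated 1 had a weight of 9.11 against 0.466 to 0.798 for the other arrays. That fit called 1366 of all units by limma, and the fits within array position 1 and within position 2, each with 3 arrays and a lone sample assumed to vary like the others, called 539 and 78, against 0 in the fit reported. Members at an unadjusted p under 0.05 numbered 4 with array weights, 2 with array position as a block and within position 1, and 0 with median centring, no filter on dim probes, within position 2, with the median of a gene's probes, with the replicate block and with a fixed slide block, against 1 in the fit reported; leaving out 1 array gave 0 to 2. The chaperone median was -0.083 within position 1 and -0.069 (without untreated 3) to 0.10 when 1 array was left out. The translocation median was 0.031 within position 1, 0.062 with a fixed slide block, 0.063 with the median of probes and 0.13 to 0.41 when 1 array was left out, with 0.13 without PNP 1, 0.16 without untreated 1 and 0.18 without untreated 2. The count of members called for array position was 5 with robust trend and 0 to 3 when 1 array was left out. The cause of these differences was not tested. Slide as a fixed block rests on slide 2 alone, where treatment and position cannot be told apart. Of single-member values over all alternatives, 719 kept their sign and side of the threshold, 94 changed sign while not passing, 1 passed (that of Sec61a1) and 0 reversed after passing; 10 members kept 1 sign in every alternative.

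Median centring moved the median of all units to -0.15, from -0.04 here, and that of the members to -0.11. Samples with the same replicate number did not deviate together (correlations of -0.409, -0.552 and -0.406). Of 6 arrays, 0 correlated best with their own number. Samples of the same number always lay at different array positions, while arrays of the 2 groups at the same position correlated at 0.135 to 0.501. The check therefore could not tell whether the numbers pair the samples. With the replicate block 0 units and 0 members passed, and the member median stayed at -0.0020. With 3 arrays a group, differences smaller than the intervals given above could not be detected, and larger ones could also miss the adjusted threshold. Dim probes such as that of Derl3 were at background level and were not tested in the fit reported.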
